A study of Mus musculus with 4 samples.

Results

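Microglia are the resident macrophages of the brain, and 8 genes that mark them in the mouse were examined for N6-methyladenosine (m6A) on their mRNAs: Csf1r, Cx3cr1, P2ry12, Tmem119, C1qa, Trem2, Itgam and Aif1. The genes were taken as a list of names, with no threshold on a measured value, but with earlier results of these data known, and are 8 of the 21938 protein-coding genes of the GENCODE M21 annotation. Their m6A peaks were taken from 2 deposited peak lists of whole brain from mice of 4 weeks, labelled as strain C57BL/6J and described for the series as Prrc2a flox/flox. In such mice the Prrc2a gene is flanked by recombination sites, and no Cre driver is named for these samples. The series held 4 samples, m6A immunoprecipitation (IP) replicates 1 and 2 and the input of each, and it held no other genotype, age or treatment. Each list was called on 1 IP sample against its own input, so the 2 lists stand for 2 replicates, and every value below is given for both. Nothing in the labels says how many animals gave the RNA of a replicate.

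m6A is the most common internal mark of mRNA. It is written mostly within the sequence GGAC and related motifs, and is known to gather near stop codons and in 3′ untranslated regions (UTRs), where reader proteins bind it and alter mRNA stability and translation. In m6A-seq, mRNA is fragmented and fragments that carry the mark are pulled down with an antibody. A peak is a stretch where IP reads outnumber input reads, and its fold enrichment is that ratio on a linear scale. Microglia clear debris and dying cells, survey the tissue with motile processes and prune synapses. They depend on signals through Csf1r, sense neurons through Cx3cr1 and tissue damage through P2ry12, and make much of the brain's complement C1q.

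Of the 8 genes, 7 had an exonic peak in replicate 1 and 8 of 8 had one in replicate 2, against 54.4% and 49.5% of all protein-coding genes. A shared peak, that is an exonic peak of replicate 1 overlapping an exonic peak of replicate 2 by at least 1 bp, was found in 7 of the 8 genes, against 45.5% of all protein-coding genes. The exception was Trem2, which had 1 peak in replicate 2 and none in replicate 1. A peak is called only where a transcript is abundant enough to be counted, and the lists give no read counts, so low RNA and absence of the mark cannot be told apart where no peak was listed. In whole brain, fewer cells of a type and less RNA per cell cannot be told apart either. Of the 16 marker genes of neurons, astrocytes, oligodendrocyte lineage and endothelium, 16 had a peak in replicate 1 and 15 in replicate 2.

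The mRNA sequences under the shared peaks are shown for the sites that the results below turn on, read from the mm10 reference along the strand of each gene and written with T for U. Capitals mark GGAC, or GGACT where the next base is T. Positions count from the last base of the stop codon, with negative values upstream of it, and give the A of the motif. The first set shows GGAC sites in shared peaks that cover or adjoin a stop codon, in 4 genes.
Cx3cr1, last part of the coding sequence, A at -61, chr9:120051318-120051345, minus strand: gaggagcaggcaGGACagcattctgagc
Cx3cr1, 3′ UTR, A at 96, chr9:120051161-120051188, minus strand: tgcaagaaatatGGACcagatgcctgca
Tmem119, 3′ UTR, A at 21, chr5:113794862-113794889, minus strand: ccagaactgctgGGACccgaatgttggg
C1qa, 3′ UTR, A at 51, chr4:136896090-136896117, minus strand: gctccctgttgtGGACcacgcccccccc
Itgam, 3′ UTR, A at 76, chr7:128117439-128117466, plus strand: accgaagctgatGGACacatatgttgtt

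The second set is the coding sequence under shared peaks of P2ry12 and C1qa. It is shown because GGAC lie close together in the P2ry12 stretch and in the longer C1qa stretch. For P2ry12 it is the 199 nt of codons 282 to 348, the last of which is the stop codon, and both GGAC of the peak fall within it, with the A at -56 and at -39.
P2ry12, chr3:59217209-59217407, minus strand: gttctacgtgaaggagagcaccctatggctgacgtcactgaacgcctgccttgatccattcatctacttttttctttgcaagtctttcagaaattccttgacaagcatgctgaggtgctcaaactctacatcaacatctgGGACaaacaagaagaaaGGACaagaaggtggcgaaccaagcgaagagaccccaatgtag
For C1qa it is the 200 nt of codons 55 to 121, which hold 4 GGAC, of which 2 read GGACT, and the 163 nt of codons 1 to 55, which hold 1.
C1qa, chr4:136896529-136896728, minus strand: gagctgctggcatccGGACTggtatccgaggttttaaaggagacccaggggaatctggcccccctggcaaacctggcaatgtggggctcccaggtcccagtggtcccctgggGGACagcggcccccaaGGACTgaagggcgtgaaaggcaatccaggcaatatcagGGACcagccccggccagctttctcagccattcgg
C1qa, chr4:136897675-136897837, minus strand: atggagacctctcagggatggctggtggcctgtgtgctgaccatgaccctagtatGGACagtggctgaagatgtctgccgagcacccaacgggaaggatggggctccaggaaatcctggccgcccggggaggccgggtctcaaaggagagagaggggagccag

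The third set lies away from stop codons, in the 5′ UTR of Aif1 and far down the 3′ UTR of Tmem119. These are shown because the shared peak of Aif1 lay over its start codon and part of the 5′ UTR and because the peaks of Tmem119 spread over most of its 3′ UTR.
Aif1, 5′ UTR, A at -491, chr17:35172574-35172601, minus strand: ctggtggagagaGGACccagcggacaga
Aif1, 5′ UTR, A at -482, chr17:35172565-35172592, minus strand: agaggacccagcGGACagactgccagcc
Tmem119, 3′ UTR, A at 501, chr5:113794382-113794409, minus strand: cccctgttcagtGGACTtgattagttag
Tmem119, 3′ UTR, A at 1074, chr5:113793809-113793836, minus strand: ctctgttctgagGGACTccccacacctc

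The positions of all peaks on the mRNAs, together with their fold enrichments, are drawn to scale in the transcript maps. Each gene is represented by its transcript with the longest coding sequence, except Itgam, whose peaks lay in a longer final exon of another transcript.

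**Figure D1:**
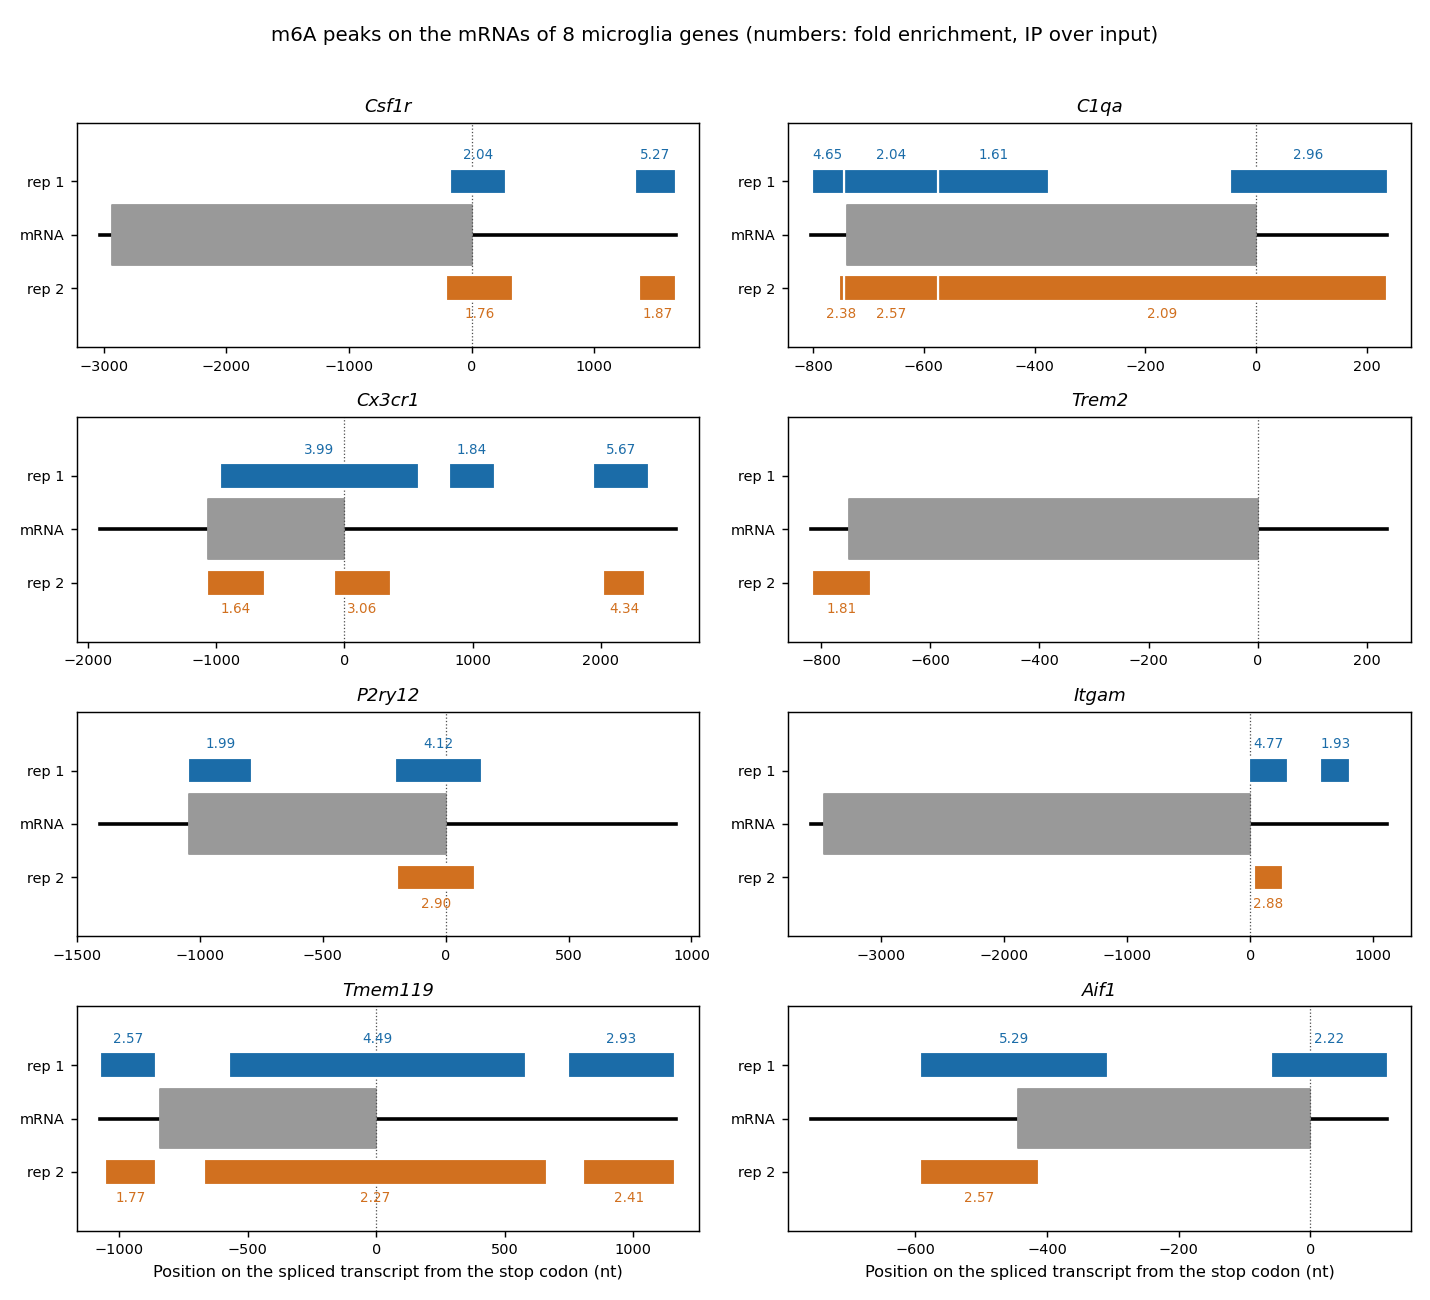
m6A peaks of both replicates on the spliced mRNA of each of the 8 genes. The horizontal axis is the position in nt from the stop codon (dotted line). The grey box is the coding sequence and the black line the UTRs. Blue bars above are peaks of replicate 1 and orange bars below are peaks of replicate 2, each with its fold enrichment. Peaks over the stop codon in both replicates are seen in Csf1r, Cx3cr1, P2ry12, Tmem119 and C1qa. Trem2 has 1 bar, in replicate 2.

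Cx3cr1 encodes the receptor for the neuronal chemokine fractalkine. It carried the strongest peak of the 8 genes in both replicates. This peak lay in the distal 3′ UTR, at chr9:120048892-120049332 with a fold enrichment of 5.67 in replicate 1 and at chr9:120048929-120049249 with 4.34 in replicate 2. Its centre was 2158 nt and 2181 nt after the stop codon, within exon 3, the last exon. The fold enrichment exceeded that of 94.9% of all exonic peaks in replicate 1 and of 97.7% in replicate 2, so the peak stood high in both lists. No GGAC was present in the 321 nt that the 2 peaks share.

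Around the Cx3cr1 stop codon the lists drew different borders. Replicate 1 held a single peak of 1551 nt, longer than 99.0% of its list, at chr9:120050689-120052239 with a fold enrichment of 3.99, running from codon 32 of the coding sequence to 581 nt past the stop codon. Replicate 2 held separate peaks over the same stretch. One lay over the stop codon at chr9:120050910-120051349 with 3.06, and the other over the start codon at chr9:120051887-120052343 with 1.64. The stop codon was thus under a peak in each replicate and the start codon in replicate 2 alone, and the interval shared at the stop codon held 3 GGAC, among them the -61 and 96 sites printed above. A weaker 3′ UTR peak at chr9:120050095-120050452, with 1.84, was listed in replicate 1 and had no partner in replicate 2.

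P2ry12 encodes the ADP receptor that steers microglial processes toward damaged cells. Its shared peak covered the stop codon, in exon 4, at chr3:59217061-59217415 with a fold enrichment of 4.12 in replicate 1 and at chr3:59217091-59217407 with 2.90 in replicate 2. The 2 peaks were centred at -29 nt and -40 nt, and exceeded 81.1% and 79.1% of the exonic peaks of their lists, so the rank was close although the values differed 1.42-fold. Both GGAC of the interval are in the coding stretch printed above. A peak over the start codon, at chr3:59217998-59218256 with 1.99, was present in replicate 1 and absent from replicate 2.

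Csf1r encodes the receptor tyrosine kinase for the growth factors Csf1 and Il34, on which microglia depend for survival. Its 4701-nt mRNA had a peak over the stop codon and another at the end of the 3′ UTR. The stop codon peak spanned exons 20 and 21, at chr18:61130210-61130762 with a fold enrichment of 2.04 in replicate 1 and at chr18:61130183-61130814 with 1.76 in replicate 2. These values were low in their lists, above 25.5% and 26.2% of exonic peaks, and close between replicates.

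The peak at the Csf1r 3′ end differed far more between replicates. It had a fold enrichment of 5.27 at chr18:61131815-61132499 in replicate 1 and of 1.87 at chr18:61131844-61132464 in replicate 2, a ratio of 2.81 that exceeded the ratio of 99.1% of all matched exonic pairs. All 685 bp and 621 bp of these peaks also lie in exons of Hmgxb3, a gene on the opposite strand, and 350 bp and 315 bp lie beyond the annotated end of Csf1r. The library kit does not mark strand, so reads of the 2 genes cannot be told apart here. Without this peak Csf1r still had a shared peak, the one over its stop codon, with a highest value of 2.04.

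Trem2 encodes a lipid-sensing receptor that signals through the adaptor Tyrobp. A single peak was listed, in replicate 2, at chr17:48346396-48346737 with a fold enrichment of 1.81, which exceeded 29.4% of the exonic peaks of that list. Of its 342 bp, 337 were in exons of some annotated Trem2 transcript, and 108 were on the representative transcript. There it covered exon 1 with the 5′ UTR, the start codon and 14 codons. The peak held the starts of 4 annotated transcripts. No peak of replicate 1 overlapped it. On the criterion of a peak in both replicates, Trem2 was the member without one.

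Itgam encodes CD11b, the alpha chain of complement receptor 3. The transcript with the longest coding sequence, of 3701 nt, ends before the bases where its peaks lay, so they were placed on a transcript of 4682 nt with 30 exons and a 3′ UTR of 1114 nt. The shared peak began close to the stop codon, at chr7:128117364-128117682 with a fold enrichment of 4.77 in replicate 1 and at chr7:128117406-128117642 with 2.88 in replicate 2, and its centre was 146 nt and 147 nt after the stop codon. It stood above 88.6% and 78.6% of exonic peaks, and the single GGAC printed above lies inside it. Farther down the 3′ UTR, a peak at chr7:128117945-128118189 with 1.93 was present in replicate 1 alone.

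Tmem119 encodes a membrane protein of unsettled function that is widely used to tell microglia from other macrophages. Its 2242-nt mRNA carried 3 peaks in each replicate, and each had a partner in the other. The broadest covered the stop codon, at chr5:113794315-113795469 with a fold enrichment of 4.49 in replicate 1 and at chr5:113794233-113795565 with 2.27 in replicate 2. Its lengths of 1155 and 1333 nt exceeded those of 97.2% and 98.0% of the peaks of each list, so it was among the longest in both.

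The distal 3′ UTR peak of Tmem119, at chr5:113793733-113794149 and chr5:113793733-113794092, had fold enrichments of 2.93 and 2.41. The 5′ UTR peak in exon 1, at chr5:113800240-113800565 and chr5:113800240-113800499, had 2.57 and 1.77. Of the 8 GGAC in the shared intervals of Tmem119, 7 were under the stop codon peak, 1 was under the distal peak and the 5′ UTR interval held none. Both GGACT sites are printed above.

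C1qa encodes the A chain of C1q, which starts the classical complement cascade and tags synapses for removal. Its short mRNA, of 1040 nt in 3 exons, had 4 exonic peaks in replicate 1 and 3 in replicate 2. Over the last exon, replicate 1 listed a stop codon peak at chr4:136895878-136896202 with a fold enrichment of 2.96 and a coding peak at chr4:136896529-136896728 with 1.61. Replicate 2 listed 1 peak across both, at chr4:136895918-136896827 with 2.09. The start codon peak in exon 2 had 2.04 at chr4:136897560-136897945 in replicate 1 and 2.57 at chr4:136897540-136897887 in replicate 2, and was the one matched pair of the 8 genes that was higher in replicate 2.

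The highest C1qa value of replicate 1 belonged to the first exon, at chr4:136898555-136898945 with 4.65 in replicate 1 and chr4:136898555-136898754 with 2.38 in replicate 2, where the start codon peak was higher at 2.57. This peak lay mostly outside exons. In replicate 1 it had 58 bp in exon 1, 191 bp in the first intron and 142 bp before the annotated start, and in replicate 2 it had 9 bp in exon 1 and the same 191 bp of intron. It counts as exonic by the rule of any exonic base, and the C1qa call does not rest on it, since the stop codon and start codon peaks were shared too.

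Aif1 encodes Iba1, the calcium-binding protein whose antibody stain is the usual picture of microglia. Its shared peak lay over exons 3 to 5, with the last part of the 5′ UTR and the start codon, at chr17:35172147-35172715 with a fold enrichment of 5.29 in replicate 1, and over exons 3 and 4 at chr17:35172342-35172714 with 2.57 in replicate 2. The 2.05-fold ratio exceeded that of 92.4% of matched exonic pairs, and 258 bp and 168 bp of the peaks were intronic. The start of another annotated Aif1 transcript also lies in the peak. Over the stop codon and 3′ UTR, a peak at chr17:35170942-35171169 with 2.22 was listed in replicate 1 and not in replicate 2. Aif1 thus differed from the other members with a shared peak in having none near or downstream of the stop codon.

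As a group the 8 genes had 18 exonic peaks in replicate 1, of which 14 (77.8%, Wilson 95% interval 54.8 to 91.0) overlapped a peak of replicate 2, against 67.8% of exonic peaks of all protein-coding genes. In replicate 2 they had 15, of which 14 (93.3%, 70.2 to 98.8) overlapped a peak of replicate 1, against 76.8%. Both background shares lie inside these intervals, which cover counting error only and treat peaks of 1 gene as separate. All 4 unshared peaks of replicate 1 had values between 1.84 and 2.22, and the unshared peak of replicate 2 had 1.81, while the members' values ran from 1.61 up to 5.67 in replicate 1, and from 1.64 up to 4.34 in replicate 2. The unshared peaks thus lay in the lower part of the members' range. With peaks of at least 2-fold required in each replicate, 6 of the 8 genes kept a shared peak, against 36.8% of all protein-coding genes.

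The median fold enrichment of the members' peaks was 2.94 in replicate 1, with quartiles of 2.04 and 4.61, and that of all exonic peaks was 2.71, with quartiles of 2.03 and 3.75. In replicate 2 the medians were 2.38 for the members, with quartiles of 1.84 and 2.73, and 2.17 for all exonic peaks, with quartiles of 1.73 and 2.76. The members' peaks thus lay within the usual range of the lists in both replicates. Among 13 pairs of members' peaks matched one to one, 12 (92.3%) were higher in replicate 1, by a median ratio of 1.42. The same direction held in 78.3% of the 20999 matched exonic pairs of all genes, by a median ratio of 1.29, so the replicates differed in scale across the whole of both lists.

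**Figure D2:**
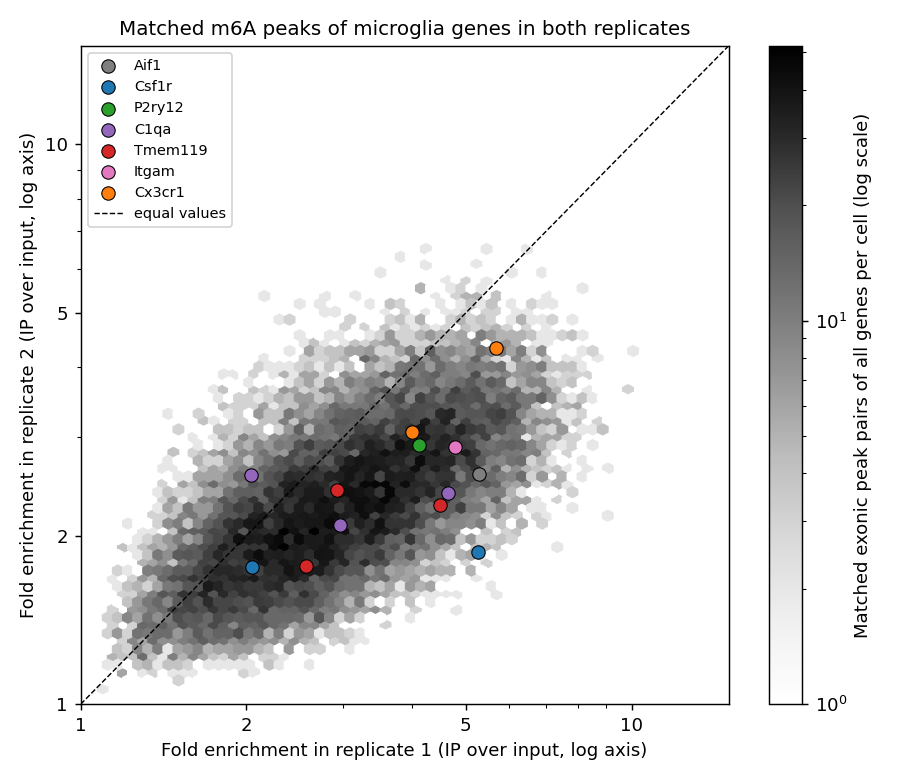
Fold enrichment of matched m6A peaks in replicate 1 (horizontal, log axis) and replicate 2 (vertical, log axis). Grey cells count the 20999 matched exonic pairs of all genes, coloured points are the 13 matched pairs of the microglia genes, and the dashed line marks equal values. Of the points, 12 lie below the line and 1 of C1qa lies above it. The Cx3cr1 pair at 5.67 and 4.34 is the highest, and the Csf1r pair at 5.27 and 1.87 lies farthest below the line.

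Much of the Tmem119 and C1qa mRNAs lay under peaks. Bases covered by peaks of both replicates made up 76.5% of the Tmem119 transcript and 63.8% of the C1qa transcript. Over all genes with a shared peak the median share was 18.4%, with quartiles of 9.94% and 31.3%, and Tmem119 and C1qa exceeded 99.2% and 97.5% of these genes. Both mRNAs are shorter than the median of 3334 nt of genes with a shared peak. Cx3cr1 had 24.8%, Aif1 20.6%, Csf1r 16.3% and P2ry12 13.5%. The Csf1r share includes 306 nt under its 3′ end peak, which also lies in exons of Hmgxb3. The replicates differed in both directions, with 52.3% in replicate 1 against 27.1% in replicate 2 for Cx3cr1, 52.9% against 20.6% for Aif1, 26.2% against 13.5% for P2ry12, and 68.7% against 95.2% for C1qa.

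**Figure D3:**
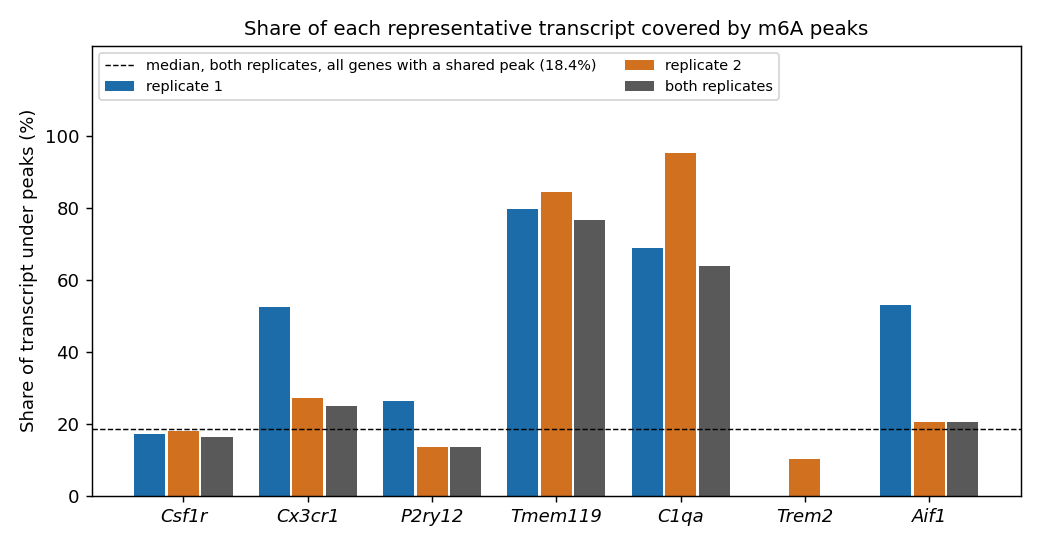
Share of each representative transcript, in percent of its bases, that lay under m6A peaks of replicate 1 (blue), replicate 2 (orange) and both (grey). The dashed line is the median of 18.4% for both replicates over all genes with a shared peak. Itgam is left out because its representative transcript does not hold its peaks. Tmem119 (76.5% in both) and C1qa (63.8%) stand above the other genes, and Trem2 has bases under a peak in replicate 2 alone.

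The shared peaks gave 15 intervals, of which 14 could be placed on a representative transcript. Their midpoints fell in the 3′ UTR in 7 (50.0%), in the coding sequence in 4 (28.6%) and in the 5′ UTR in 3 (21.4%). Of the 21729 such intervals of all protein-coding genes, 28.5% fell in the 3′ UTR, 61.0% in the coding sequence and 10.5% in the 5′ UTR. The stop codon was within 200 nt of the midpoint in 5 of 14 (35.7%, Wilson 95% interval 16.3 to 61.2), against 22.9%, which is inside that interval. These 5 intervals belong to 5 genes, Csf1r, Cx3cr1, P2ry12, Tmem119 and C1qa, and Itgam added a stop codon interval on its other transcript. The 3 intervals in 5′ UTRs belong to Tmem119, C1qa and Aif1, and that of C1qa has 9 exonic bases.

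The motif GGAC, searched on the mRNA strand alone, was present in 11 of the 14 intervals (78.6%, 52.4 to 92.4) and in 74.5% of those of all genes. GGACT, which is GGAC with a following T and so a subset of the GGAC matches, was present in 7 (50.0%) and in 37.5%. In the central 101 nt around each midpoint, GGAC was present in 10 of 14 (71.4%, 45.4 to 88.3), in 46.9% of the central windows of all genes and in 32.3% of every 101-nt window of the representative transcripts. The 46.9% lies inside the members' interval. The 10 include the first C1qa peak, whose window takes in sequence beyond its 9 shared exonic bases. The intervals without GGAC were the distal Cx3cr1 peak, the Tmem119 5′ UTR peak and the 9 exonic bases of the first C1qa peak. Tmem119 and C1qa held 8 GGAC each in their shared intervals, Csf1r and Cx3cr1 5 each, P2ry12 and Aif1 2 each. The whole P2ry12 transcript holds no GGACT. A motif match describes the sequence and does not place the mark on a base.

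The mRNAs of proteins that work with the 8 were examined next. Of 9 partners, 6 had a shared peak, against 45.5% of all protein-coding genes, and 3 had no peak in either replicate. With at least 2-fold in each replicate 3 of the 9 remained, against 36.8%. Csf1, a ligand of Csf1r, had a 3′ UTR peak of 5.72 in replicate 1 and 4.74 in replicate 2. The lower of these values exceeded that of the strongest shared peak in 98.2% of the genes with a shared peak. Cx3cl1, the fractalkine ligand of Cx3cr1 made by neurons, had a coding peak of 6.60 and 3.15. Apoe, a lipid carrier and ligand of Trem2, had a coding peak of 2.47 and 2.17. Tyrobp, the signalling adaptor of Trem2, Itgb2, the beta chain that pairs with Itgam, and C3, the complement protein whose fragment that receptor binds, had no peak. For the ligand and receptor pairs of Csf1 with Csf1r and Cx3cl1 with Cx3cr1, both mRNAs had a shared peak, while Trem2 and its adaptor Tyrobp had none. Other partners differed. Itgam had a shared peak while Itgb2 and C3 had none, and Apoe had one while Trem2 had none. Whether partners are alike in their peaks was not tested.

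Of 19 other surface and secreted proteins of microglia, 10 had a shared peak. The highest were Entpd1, an enzyme that breaks down extracellular ATP, with 5.46 and 3.64 in its 3′ UTR, Mertk, a receptor for dying cells, with 4.01 and 2.90, and Cd14, a co-receptor for bacterial lipopolysaccharide, with 4.38 and 2.90. Gpr34, Tgfbr1, Fcrls, Cd33 and Ctss had peaks in 1 replicate, and Slc2a5 had peaks in both that did not overlap. Fcer1g, Ptprc and Cd68 had no peak. The share of this list, 52.6%, was near that of all genes, 45.5%.

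Of 4 transcription factors of microglia, 2 had a shared peak (50.0%), near the 45.5% of all protein-coding genes. Sall1 had 4.39 and 2.70 in its coding sequence, and Spi1, the factor PU.1 that directs the myeloid lineage, had 7.82 and 2.22 in its 3′ UTR. The Spi1 values were far apart between replicates. Irf8 had peaks in replicate 1, the highest of 4.42, and none in replicate 2, and Runx1 had none.

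Markers of border macrophages, the related cells of the meninges and perivascular spaces that whole brain also holds, had no shared peak in any of 6 genes. Cd163 had peaks in both replicates that did not overlap, Lyve1 and Ms4a7 had 1 each in replicate 1, and Mrc1, Pf4 and F13a1 had none. Of the 16 markers of other brain cells, 15 had a shared peak, against 45.5% of all genes, the exception being Gad1 with 1.24 in replicate 1. With at least 2-fold in each replicate 8 of the 16 remained, against 36.8%. The highest were Pdgfra and Cspg4 of oligodendrocyte precursors, with 6.28 and 3.81 and with 4.43 and 3.32, and Aqp4 of astrocytes, with 5.73 and 3.10. Markers of the same cell types were also the lowest. These were Aldh1l1 and Gfap of astrocytes, with 1.42 and 1.39 and with 1.64 and 1.67, and Mbp of the oligodendrocyte lineage, with 2.58 and 1.55. The median of the lower of both values in the strongest shared peak was 2.57 over the 7 microglia genes, 2.38 over the 15 markers of other brain cells and 2.65 over all genes. These counts are descriptions, and how far RNA abundance and transcript length set them was not tested. The median length was 3334 nt in genes with a shared peak and 1795 nt in genes with no peak.

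**Figure D4:**
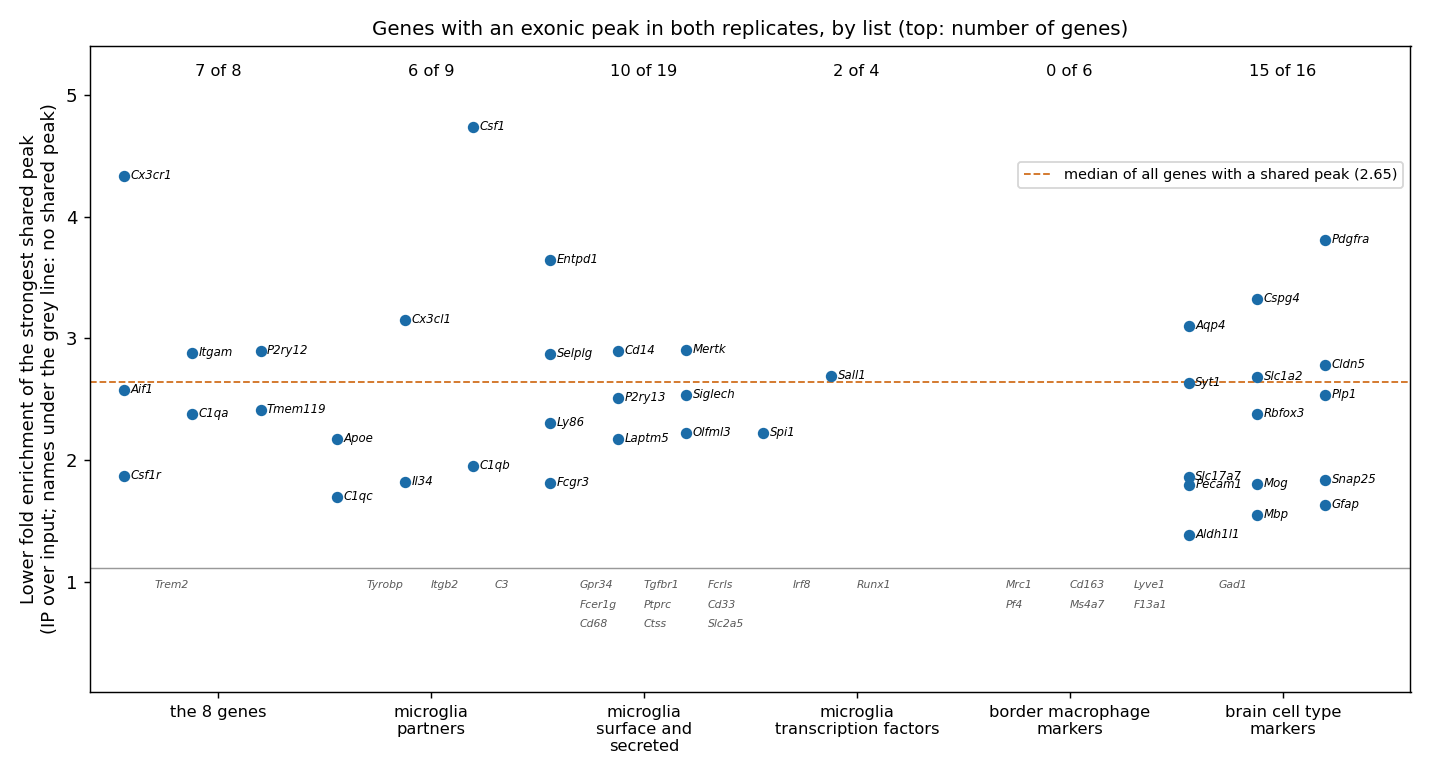
Strongest shared exonic m6A peak of each gene, by gene list. The vertical axis is the lower of the 2 replicates' fold enrichments, points are genes, the numbers at the top are genes with a shared peak out of the list, and names under the grey line are genes without one. The dashed line is the median of 2.65 over all genes with a shared peak. Csf1 (4.74) and Cx3cr1 (4.34) stand highest, and the border macrophage markers have no point.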

How the data were processed

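The authors trimmed reads with Cutadapt and Trimmomatic, aligned them to mm10 with TopHat, kept uniquely mapped reads and called peaks with MACS2 on each IP replicate against its own input, with no fragment model, all duplicates kept and a false discovery cutoff. The deposited values are linear ratios (fold enrichment), with 38533 peaks in replicate 1 and 30134 in replicate 2. They carry no strand, count or p-value, so the depth is unknown.

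Peaks were laid on exons of GENCODE M21 (GRCm38, the mm10 assembly) with Python 3.11.15, pandas 2.3.3 and numpy 2.4.6. A peak was exonic with any exonic base, shared with 1 bp of overlap with a peak of the other replicate, and matched where each was the other's longest overlap. Motifs were searched in the exonic bases that shared peaks have in common. The overlap and coordinate steps were checked on simulated peaks. With 1 list per replicate and no other condition no test was run. All 8 genes are described with every peak, and of each other list the genes without a shared peak and the 3 with the highest lower value are named. Of the brain cell markers the 3 with the lowest are named too. The genes and lists were chosen with earlier results of these data known. Of the other lists, 2 genes are not reported here and entered none of the lists' counts.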

Additional observations from a re-analysis of the deposited data

How the results depend on the processing

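Of 64 alternatives over 14 results, 53 stayed within a tolerance and 11 moved. Counts had to stay within a set ratio, shares within their Wilson interval and medians within 1 standard deviation. These tolerances were wide. With overlap of at least 50% of both peaks, the shared percentage fell from 77.8 to 61.1 in replicate 1 and from 93.3 to 73.3 in replicate 2. The median log2 difference between replicates fell from 0.508 to 0.138 once the median of all matched pairs was subtracted. These changes count among the 53. A change of direction was possible only for the difference in fold enrichment between matched peaks of the replicates, where it did not occur. The other results are counts, shares and ratios that have no direction to change. The 7 members with a shared peak became 6 where each replicate had to reach 2-fold (Csf1r lost, and 36.8% of all genes kept), 6 with exons of the representative transcript alone (Itgam lost) and 6 with the peak's midpoint in an exon (Aif1 lost). With 1 replicate left out, the count of members with a peak was 7 to 8. The whole gene span gave 26 peaks in replicate 1 and 27 in replicate 2. At 2-fold or more, the shared percentage in replicate 2 was 100.0, of 10 peaks, and the replicate 1 median was 4.06. This filter removes low values and so raises a median, and no value over all genes is given for either. With the same filter, 3 partners and 8 brain cell type markers had a shared peak. The replicate 1 median was also 4.06 over shared peaks and 4.77 over the strongest peak of each gene. Over the strongest peak of each protein-coding gene with a peak, it was 3.73. In replicate 2 the strongest peaks had a median of 2.57 in the members and 2.73 in all such genes. Of the intervals, 50.0% held GGACT, against 37.5% of those of all protein-coding genes. The broader DRACH consensus was in 92.9%, against 95.3%. Border macrophage markers with a peak numbered 1 to 3 with 1 replicate left out. Leaving out peaks over exons of other genes, an alternative chosen after seeing the data, kept 7 members, with 17 and 14 peaks. No paired analysis was possible because each replicate number holds 1 peak list and no groups were compared. Without read counts, a missing peak cannot be told from low coverage, and 2 lists bound no error.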

Other observations

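Inside the annotated span of Cx3cr1 but outside its exons, 7 peaks were listed in replicate 1 and 12 in replicate 2, and each lay on exons of Wdr48, Gorasp1, Ttc21a or Csrnp1. The strongest, on Csrnp1, had a fold enrichment of 5.53 at chr9:119972338-119973168 in replicate 1 and 3.12 at chr9:119972274-119973165 in replicate 2. The long span comes from annotated Cx3cr1 transcripts that reach across these neighbours. P2ry12 had 1 such peak, in replicate 1, at chr3:59227631-59227954 with 2.01, on an exon of Med12l on the opposite strand. None of these peaks entered the counts for Cx3cr1 or P2ry12.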
